A study of Mus musculus with 288 samples.

Results

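Cells of an epithelial type hold together through a small set of surface proteins, and 10 mouse genes of that kind are described here: the cadherins Cdh1 (E-cadherin) and Cdh2 (N-cadherin), the adhesion molecule Epcam, the splicing factor Esrp1, the claudins Cldn4, Cldn6 and Cldn7, the scaffold Tjp1 (ZO-1) and the immunoglobulin family members Pecam1 and Icam1. They were taken by name, as 10 of the 54232 genes in a count table of single-cell RNA-seq, and all 10 had reads.

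E-cadherin binds its like on the neighbouring cell and is tied to the actin cytoskeleton through catenins, which makes the adherens junction. Claudins form the strands of the tight junction, and Tjp1 links those strands to actin from inside the cell. Mouse embryonic stem cells grow as compact colonies rich in E-cadherin, and a change from E-cadherin to N-cadherin is known from the epithelial-to-mesenchymal transition in gastrulation. Esrp1 directs exon choice towards epithelial isoforms. Pecam1 and Icam1 are best known from endothelium and inflammation, but both are also found on cultured mouse pluripotent cells.

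The cells are mouse embryonic stem cells described in the labels as the line E14, of strain 129/Ola. All were kept on gelatine in N2B27 medium with LIF and the inhibitors CHIR99021 and PD0325901, a mixture called 2i, which holds the cells in a naive state. D0 marks cells taken at 0 h, before any change of medium, and D1 and D2 mark cells taken 24 h and 48 h after a change to serum with LIF. Dissociated cells were flow sorted into 96 wells per label and treated with a GpC methylase in the lysis buffer, a step of scNMT-seq in which the RNA and DNA of each cell are sequenced, and only the polyA RNA was used here. No label carries a genetic change, and no label names a separate culture. Each time point therefore counts as 1 sample, cells are not replicates, no test was made, and plate and time point cannot be told apart.

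After a filter on reads, genes and mitochondrial share, 90 cells remained of D0, 50 of D1 and 93 of D2. A D0 cell had 255040 to 10073010 reads on genes, a D1 cell 202157 to 43336922 and a D2 cell 491549 to 9812323. When 200000 reads were drawn from every cell, the median cell showed 7793.5 genes under D0, 8035 under D1 and 3945 under D2. The D1 cells also stood apart in another way. Hprt, an X-linked gene of purine salvage, had a read in 96% of D1 cells against 10% of D0 and 7.53% of D2 cells, and the sum of 4 Y-linked genes reached 10 CPM (reads of a gene per 1000000 reads of its cell) in 48 of 50 D1 cells against 3 of 90 and 3 of 93. The labels name a single line for all cells, and this difference goes against cells of 1 kind under the 3 labels, so in any comparison with D1 the cells, the plate and the time point cannot be told apart. In D1 a cell without an Hprt read counted as against its label. In D0 and D2 a cell with a Y-linked sum of 10 CPM or more did. By that rule 8 cells went against their label, 3 in D0, 2 in D1 and 3 in D2. An Hprt read was found in 9 D0 and 7 D2 cells. Of these, only the cell in row D and column 12 of each label is among the 8. No pair of wells held identical counts. All 9 pluripotency markers were read in 50% or more of the cells under every label, with a median summed level of 5193 CPM in D0, 6812 in D1 and 9699 in D2. Dppa5a had the highest mean of them in every label, and the markers themselves differed: 2 were at least 2-fold higher and 3 lower in D1 over D0, with Nanog at -2.84 on the log2 scale, Esrrb at -2.13 and Zfp42 at -1.30, and 3 higher and 1 lower in D2 over D0, the latter Sox2 at -1.68. Of the 6 endothelial markers, Emcn had no read and the means of Cdh5 and Tie1 were 0.07 CPM or less, while Tek had means of 12.4, 3.74 and 0.99 CPM in D0, D1 and D2, Vwf of 3.42, 0.23 and 9.99 and Cd34 of 0.76, 0.59 and 10.1. Tek was read in 14.4%, 28% and 3.23% of cells, and the part of these genes in the level of Pecam1 was not tested.

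In GRCm38, Epcam (chr17:87635979-87651129, plus strand) and Cldn6 (chr17:23679249-23682446, plus) share a chromosome, as do Cldn7 (chr11:69964779-69967885, plus) and Pecam1 (chr11:106654217-106750628, minus). Esrp1 is at chr4:11331933-11386783 (minus), Cldn4 at chr5:134945119-134946934 (minus), Tjp1 at chr7:65296165-65527781 (minus) and Icam1 at chr9:21015985-21028817 (plus). Counts cover whole genes, so isoforms were not told apart.

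Cldn4 and Icam1 were both read in fewer D2 than D0 cells, at D2 means within 2-fold of D0. In D1, Cldn4 was read in fewer cells than in D0, and Icam1 was not. Promoter sequence is shown for both and for Epcam, which had a higher mean after release. Each is the stretch of 250 bases before a transcript start in RefSeq (GRCm38.p6), read 5′ to 3′ on the strand of the gene, at chr17:87635729-87635978 on the plus strand for Epcam, at chr5:134946935-134947184 on the minus strand for Cldn4 and at chr9:21015690-21015939 on the plus strand for Icam1. Capitals mark the E-box CACCTG or its reverse complement CAGGTG, the letters bound by the zinc finger repressors of the Snai and Zeb families.
Epcam: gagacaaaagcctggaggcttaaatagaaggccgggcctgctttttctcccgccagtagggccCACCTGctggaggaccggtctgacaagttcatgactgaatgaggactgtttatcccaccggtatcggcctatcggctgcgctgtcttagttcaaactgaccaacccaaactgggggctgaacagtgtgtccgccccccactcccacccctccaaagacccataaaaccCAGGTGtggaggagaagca
Cldn4: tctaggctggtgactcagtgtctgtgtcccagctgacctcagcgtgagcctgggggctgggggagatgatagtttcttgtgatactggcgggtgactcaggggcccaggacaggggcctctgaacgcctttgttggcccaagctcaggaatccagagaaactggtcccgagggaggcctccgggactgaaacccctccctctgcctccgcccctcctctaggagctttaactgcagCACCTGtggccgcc
Icam1: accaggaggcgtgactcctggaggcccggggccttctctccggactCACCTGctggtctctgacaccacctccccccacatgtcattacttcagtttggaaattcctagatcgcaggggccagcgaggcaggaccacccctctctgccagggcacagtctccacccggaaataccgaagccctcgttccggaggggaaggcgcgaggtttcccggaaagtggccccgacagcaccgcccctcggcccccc

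The Epcam window holds 2 E-boxes, whose letters lie 187 to 182 and 19 to 14 bases before the start. The Cldn4 window holds 1, 14 to 9 bases before the start, and the Icam1 window holds 1, 204 to 199 bases before it. Of the 10 members, 6 were matched to RefSeq promoters, with 7 windows among them, and 5 of the 7 windows held the E-box on either strand, against 17.2% of the 32851 windows of all genes. Cldn6 had 1 match, Cldn7 had 2 in 1 of its 2 windows and none in the other, and Tjp1 had none. The grainyhead motif AACNGGTT, also searched on both strands, was in 0 of the 7 windows and in 1.79% of all windows. The Tjp1 window was the richest in CpG, with 22 against a median of 6 over all windows, and the other member windows held between 6 and 15. These are matches of letters in a fixed window.

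Cdh1 was the most abundant member of the set in D0 and lay far lower in both later labels. The gene, at chr8:106603351-106670246 on the plus strand (GRCm38), had a level of 431 ± 197 CPM in D0 (mean ± SD between cells, n = 90 cells), 89.3 ± 64.4 in D1 (n = 50) and 141 ± 320 in D2 (n = 93). Medians were 437, 78.6 and 7.34 CPM and the highest cells reached 973, 275 and 1756. D0 cells formed a narrow band, with the middle 50% between 278 and 560 CPM, whereas D2 cells ran from no read to levels above every D0 cell, and the ranges of all 3 labels overlapped at 0. The coefficient of variation (SD divided by mean) was 0.46 for D0, 0.72 for D1 and 2.27 for D2, where genes read in 50% or more of cells had a median of 1.05, 1.08 and 1.34. At equal depth a Cdh1 read was found in 98.9% of D0 cells (exact 95% interval 93.96 to 99.97), 94% of D1 cells (83.5 to 98.7) and 57% of D2 cells (46.3 to 67.2). These intervals, like all others given, cover counting error only. Of all Cdh1 CPM in D2, 49.5% came from 5 cells.

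Cdh2, the N-cadherin, was the less often read of the cadherins in every label. It had a read in 7 of 90 D0 cells, 20 of 50 D1 cells and 2 of 93 D2 cells, and the highest cell reached 46.5, 103 and 89 CPM. Mean levels were 1.95 ± 8.11 CPM in D0, 9.03 ± 20.4 in D1 and 1.12 ± 9.35 in D2, all medians were 0, and 1 cell held 85.3% of the D2 sum. At equal depth the share was 6.67% in D0, 32% in D1 (19.5 to 46.7) and 2.15% in D2. N-cadherin reads were thus most frequent in D1, also at equal depth. D1 is the label that stood apart in depth and in Hprt and Y-linked reads, and the part of these was not tested. No cell had Cdh2 without Cdh1 at that depth: reads of both were found in 6 D0, 16 D1 and 2 D2 cells, of Cdh1 alone in 83, 31 and 51, and of neither in 1, 3 and 40. Per kilobase of transcript, Cdh2 exceeded Cdh1 in 0 of 90, 2 of 50 and 1 of 93 cells.

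Epcam, a homophilic adhesion molecule that also steadies claudins at the membrane, went the other way from Cdh1. Its mean level was 28.1 ± 65.9 CPM in D0, 241 ± 174 in D1 and 143 ± 187 in D2. The medians were 4.91, 228 and 71.2 and the highest cells were at 463, 630 and 1279. The bulk of D0 cells lay below the bulk of D1 cells, although every label reached down to 0. The equal-depth share was 47.8% in D0 (37.1 to 58.6), 96% in D1 (86.3 to 99.5) and 77.4% in D2 (67.6 to 85.4). Epcam reads were thus found in a larger part of D2 than of D0 cells. The highest D0 cell, at 463 CPM, was 1 of the 8 cells against their label, and the 2 D1 cells without an Epcam read were also those without a Cdh1 read. The coefficient of variation was 2.34 for D0, 0.72 for D1 and 1.30 for D2.

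**Figure D1:**
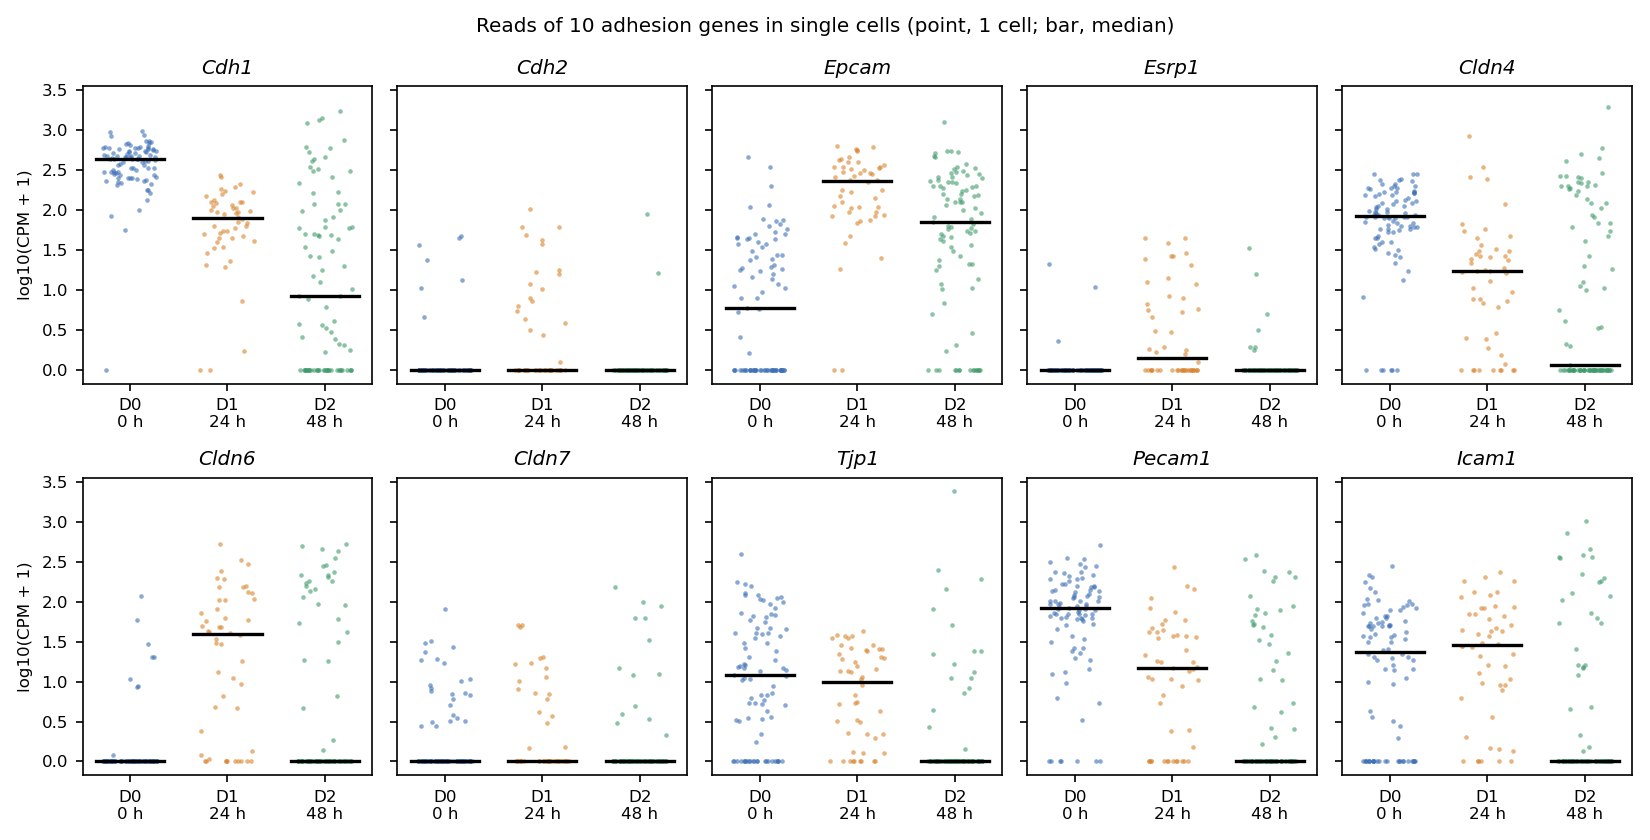
Levels of the 10 genes in each passing cell on a log10(CPM + 1) axis, with 1 point per cell for D0 (n = 90), D1 (n = 50) and D2 (n = 93) and a bar at the median. Cdh1 forms a tight band at a median of 437 CPM in D0 and a broad scatter at a median of 7.34 in D2, while Epcam moves from a median of 4.91 in D0 to 228 in D1 and 71.2 in D2.

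Within single cells the order of Epcam and Cdh1 changed. Per kilobase of transcript, Epcam lay above Cdh1 in 3 of 90 D0 cells (3.33%), in 45 of 50 D1 cells (90%) and in 63 of 93 D2 cells (67.7%). At equal depth, cells with Cdh1 but no Epcam read numbered 46 in D0, 0 in D1 and 11 in D2, and cells with Epcam but no Cdh1 read numbered 0, 1 and 30. Where only 1 of the pair was read, it was Cdh1 in D0 and more often Epcam in D2. Both were read together in 43, 47 and 42 cells.

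Esrp1, whose protein sets the epithelial splicing pattern, was near the limit of detection in D0 and D2. It had a read in 3 of 90 D0 cells, 26 of 50 D1 cells and 7 of 93 D2 cells, and at equal depth in 2, 16 and 2 cells. The mean level was 0.35 ± 2.38 CPM in D0, 6.61 ± 11.8 in D1 and 0.61 ± 3.72 in D2. The highest cell had 20.4, 44.2 and 32.5 CPM. The D1 share was thus 32% at equal depth (19.5 to 46.7), lower than the 26 of 50 cells at full depth. An exon of Esrp1 shares 127 bases with a non-coding gene on the other strand, and whether counting used strand is not given in the sources used here.

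Of the claudins, Cldn4 had the higher mean per kilobase in D0 and D2 and Cldn6 in D1. Cldn4 had a mean level of 102 ± 72.4 CPM in D0, 50.8 ± 133 in D1 and 92 ± 233 in D2. Its medians were 83.9, 16.2 and 0.17 and its highest cells at 287, 846 and 1973. Mean and median thus parted in D2, where 1 cell gave 23% of the sum, and in D1, where 1 cell gave 33.3%. The share at equal depth was 92.2% in D0 (84.6 to 96.8), 64% in D1 (49.2 to 77.1) and 45.2% in D2 (34.8 to 55.8).

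Cldn6, a claudin of early embryonic epithelia, was rarely read before release. The mean was 2.99 ± 14.4 CPM in D0, 72.1 ± 103 in D1 and 56.1 ± 119 in D2, the medians were 0, 38.1 and 0, and the highest cells had 119, 525 and 523. Its equal-depth share was 8.89% in D0 (3.92 to 16.8), 68% in D1 (53.3 to 80.5) and 29% in D2 (20.1 to 39.4). The part of cells with Cldn6 was thus highest in D1. Over cells with a read at full depth, a mean that rises where the same reads lie in fewer cells, it was 29.9, 90.1 and 174 CPM.

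Read against each other, Cldn6 lay above Cldn4 per kilobase in 3 of 90 D0 cells (3.33%), 34 of 50 D1 cells (68%) and 24 of 93 D2 cells (25.8%), while Cldn4 lay above in 82, 13 and 36 cells. The balance between the claudins was thus mixed from cell to cell in D2, where 33 cells had neither. At equal depth reads of both claudins were found in 6 D0, 25 D1 and 13 D2 cells. Cldn7, the partner that Epcam binds, stayed low. It had means of 3.61 ± 10.4, 5.68 ± 12.3 and 5.82 ± 22.3 CPM, medians of 0, and equal-depth shares of 17.8% in D0, 22% in D1 and 11.8% in D2.

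**Figure D2:**
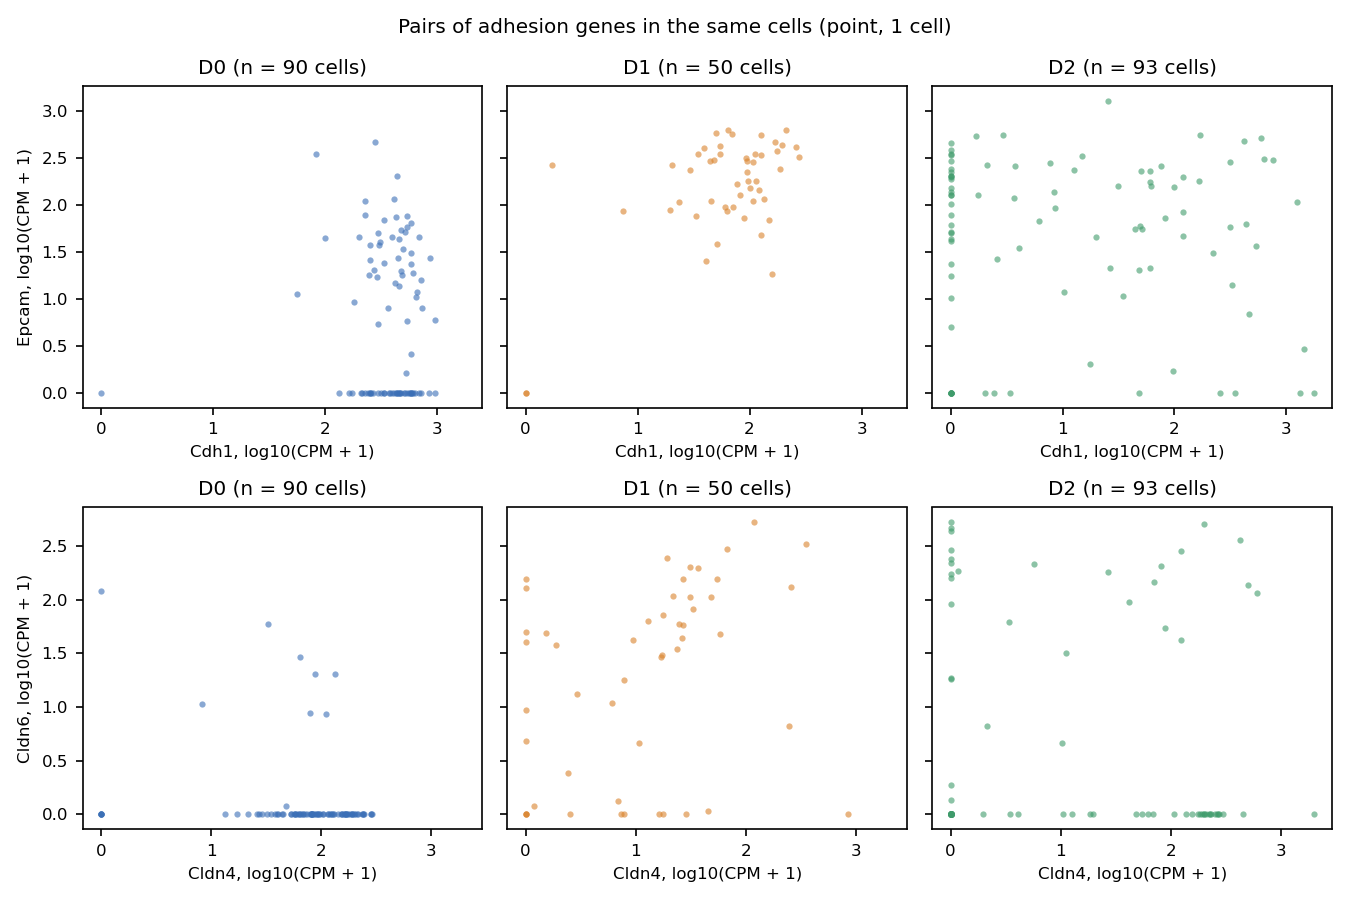
Epcam against Cdh1 (upper row) and Cldn6 against Cldn4 (lower row) on log10(CPM + 1) axes, 1 point per cell, for D0 (n = 90), D1 (n = 50) and D2 (n = 93). Cells along an axis have no read of 1 gene at full depth, and in the upper row nearly all D1 cells have reads of both genes, as 47 of 50 do at equal depth.

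Tjp1, the scaffold that joins claudins to actin, had a mean level of 35.1 ± 57.7 CPM in D0, 12.4 ± 12.8 in D1 and 35.3 ± 254 in D2. The medians were 11, 8.91 and 0, and the highest cells had 396, 42.4 and 2432. The D2 mean was set by 1 cell, in row F and column 4, which gave 74.1% of the Tjp1 sum of the label, and the other D2 cells had a mean of 9.25 CPM. The same cell had the highest Pecam1 level in D2. At equal depth Tjp1 was read in 65.6% of D0 cells, 62% of D1 cells and 18.3% of D2 cells (11 to 27.6).

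Pecam1, an immunoglobulin family receptor, was lower in both later labels. Its mean level was 105 ± 93.7 CPM in D0, 31.2 ± 49.4 in D1 and 28.8 ± 71.8 in D2, its medians 81.5, 13.8 and 0, and its highest cells 510, 271 and 379. The equal-depth share followed the same order, at 88.9%, 66% and 29%. Icam1, the ligand of leukocyte integrins, had similar means in the 3 labels and unlike shares. It had 40.9 ± 52.5 CPM in D0, 49.4 ± 58.4 in D1 and 55.5 ± 157 in D2. Icam1 medians were 22.8, 27.8 and 0 and the highest cells at 280, 234 and 1031. At equal depth Icam1 was read in 67.8%, 74% and 28% of cells, and the mean over cells with a read at full depth was 57.5, 56.1 and 178 CPM. Similar means in D2 thus came from fewer cells. An exon of Icam1 shares 511 bases with an antisense gene.

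Lower shares in D2 were seen over most genes, members or not. The limit was 20 percentage points at equal depth, over genes read in 20% or more of the thinned cells under either label. In D2 over D0, 7 of the 10 members passed that filter, and Cdh2, Esrp1 and Cldn7 did not. A lower share was found for 5 of the 7, where 70.8% of 10584 genes had it, and a higher share for 2, where 1.4% had it. Those 2 were Epcam, by 29.6 points, and Cldn6, by 20.1 points, the latter just past the limit and past the filter only through D2, where it is high. Over all of those genes the median share differed by -32.4 points, and the members' count of lower shares was near the background. From D0 to D1, where all 10 members passed, the share was higher by the limit for 4 members, against 13.3% of 11727 genes, and lower for 2, against 12.5%. Of those 4, Cdh2, Esrp1 and Cldn6 passed the filter only through D1, where they are high, so their count is no support. From D1 to D2, where all 10 passed, it was lower for 7 members, where 71.8% of genes were, and higher for none, where 1.47% were. The part of detected genes per cell in these shares was not tested.

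**Figure D3:**
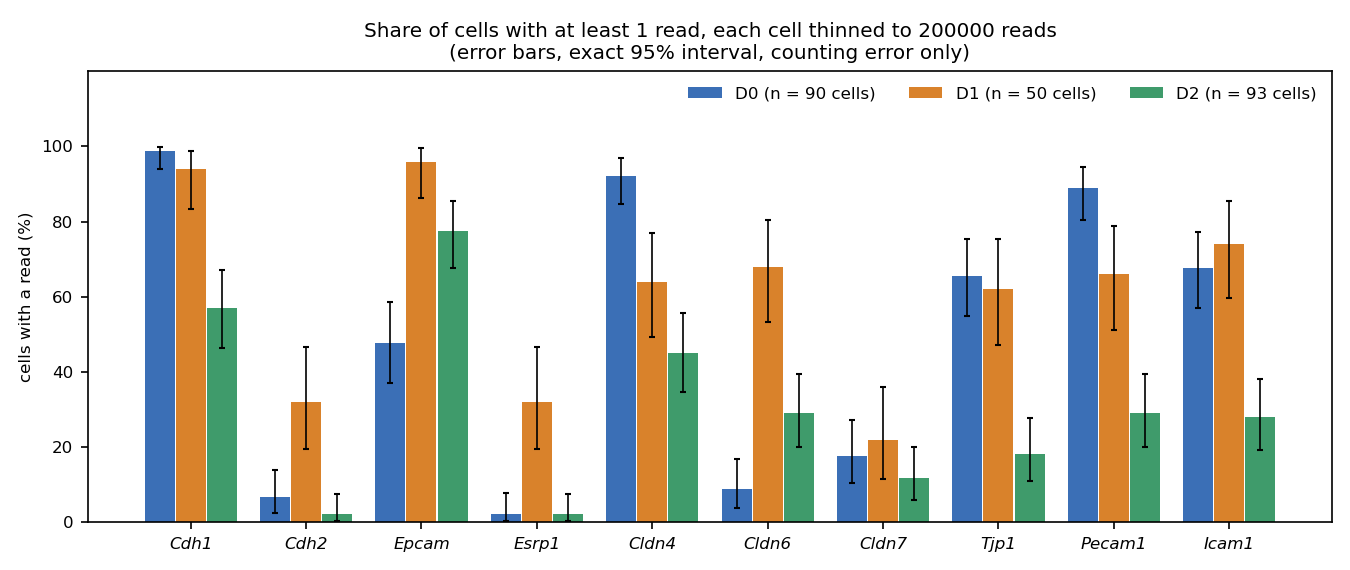
Percentage of cells with at least 1 read of each gene after thinning every cell to 200000 reads, as bars from 0 with exact 95% intervals for counting error, for D0 (n = 90), D1 (n = 50) and D2 (n = 93). Epcam and Cldn6 have taller D2 bars than D0 bars, at 77.4% against 47.8% and at 29% against 8.89%.

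Ratios between labels were taken as log2 of mean CPM with 1 CPM added to each mean, over genes read in 20% or more of the cells under either of the labels. In D1 over D0, 4 of the 10 members were at least 2-fold higher, where 14.5% of 14337 genes were, and 3 were at least 2-fold lower, where 23.9% were. The higher ones were Cldn6 at 4.19, Epcam at 3.05, Esrp1 at 2.49 and Cdh2 at 1.77, and the lower ones were Cdh1 at -2.26, Pecam1 at -1.71 and Tjp1 at -1.43. Of the higher ones, Cldn6, Esrp1 and Cdh2 passed the filter only through D1, where they are high, so their count is no support beyond their own values. With medians over cells, Esrp1 was at 0.51, Cdh2 at 0 and Tjp1 at -0.28, and with 10 CPM added Esrp1 was at 0.68 and Cdh2 at 0.67, so these calls depend on the processing. Cldn4 fell just short of the limit at -0.997, and was at -1.54 without the D1 cell that held the most of it and at -2.30 with medians. Cldn7 was at 0.54 and Icam1 at 0.27. The members' median was 0.40 against -0.12 over all tested genes. It includes Cldn6, Esrp1 and Cdh2, let in by their D1 reads, so nothing is read from it.

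In D2 over D0, 8 of the 10 members passed the filter on low values, and Cdh2 and Esrp1 did not. Epcam at 2.31 and Cldn6 at 3.84 were at least 2-fold higher, where 11.2% of 11896 genes were, and Cdh1 at -1.61 and Pecam1 at -1.82 were at least 2-fold lower, where 28.5% were. Cldn6 passed the filter only through D2, where it is high, and with medians it was at 0. These 4 genes were on the same side in D1, but the comparisons share the D0 cells. Icam1 was at 0.43 and Cldn4 at -0.15, but at -4.57 and -6.18 with medians over cells, which turns the direction of Icam1. Cldn7 was at 0.57. Tjp1 was at 0.01, and at -1.82 without the cell in row F and column 4. The unfiltered pair stood at -0.47 for Cdh2 and 0.25 for Esrp1, and Cdh2 was at -1.34 without 1 cell.

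In D2 over D1, 1 of the 10 members was at least 2-fold higher, where 15.5% of 13790 genes were, and 2 were at least 2-fold lower, where 20.5% were. Both lower members passed the filter only through D1, where they are high, so nothing is read from their count. The higher one was Tjp1 at 1.44, which went to -0.39 without the cell in row F and column 4, so the call rests on that cell. The lower ones were Cdh2 at -2.24, or -3.10 without 1 D2 cell, and Esrp1 at -2.24, and the rest lay between -0.74 for Epcam and 0.84 for Cldn4. With medians over cells every member but Cdh2 and Cldn7, both at 0, was lower in D2 than in D1, with Cdh1 at -3.26 against 0.66 from means, Cldn4 at -3.88 against 0.84 and Icam1 at -4.85 against 0.17. Cldn4 reached 1.39 without the D1 cell in row B and column 7. Without the 8 cells against their label the members were called as before in number, with Epcam at 3.40 for D1 and 2.62 for D2 over D0, Cldn6 at 4.22 and 3.85, and Cdh1 at -2.28 and -1.63. Most D0 and D2 cells with an Hprt read are not among these 8 and stayed in.

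**Figure D4:**
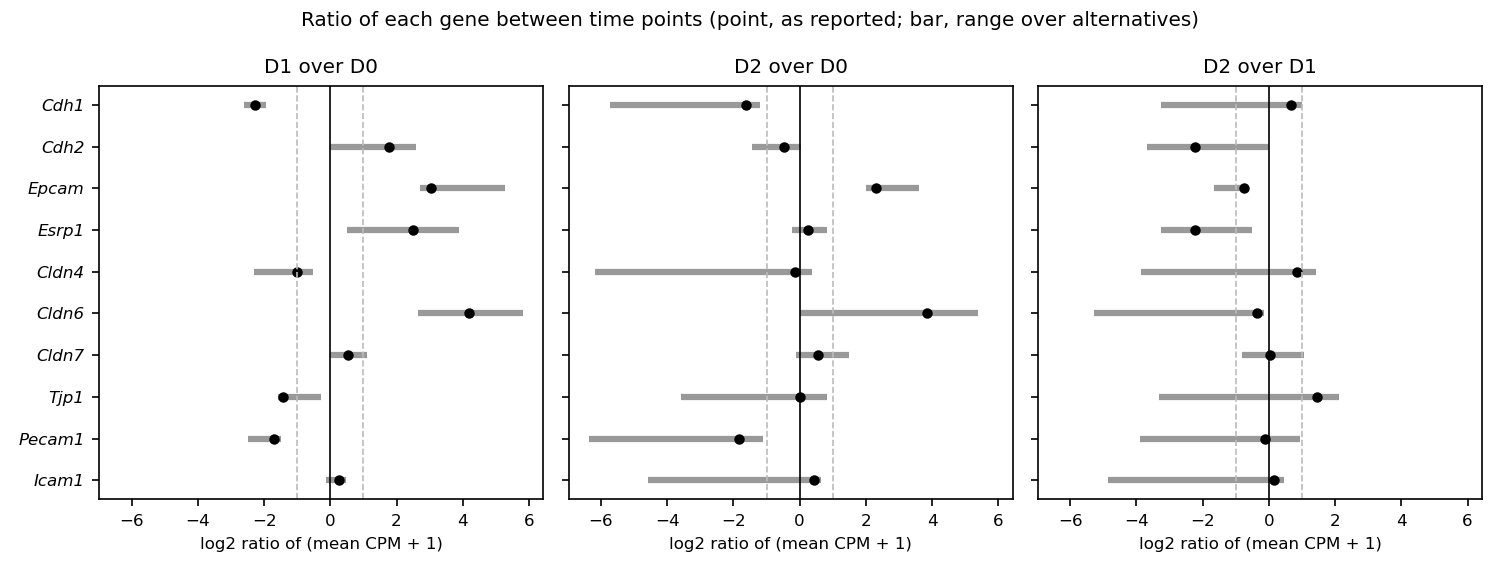
Ratio of each gene between labels on a log2 axis, with a point for the value given in the text and a bar for its range over the other ways of processing; dashed lines mark 2-fold. In the panels of D1 and D2 over D0, Epcam stays above the upper line and Cdh1 below the lower one, while Cldn6 in D2 over D0 reaches down to 0.

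Per kilobase of the longest annotated transcript, which allows genes to be set against each other, the order of the members turned over. In D0 it ran from Cdh1 at a mean of 97.4 CPM per kilobase through Cldn4 at 56.4, Pecam1 at 30.4, Icam1 at 16.1 and Epcam at 13.8 to Tjp1 at 4.98, with Cldn7, Cldn6, Cdh2 and Esrp1 at 2.70 or less. In D1 Epcam led at 118, followed by Cldn6 at 44.4, Cldn4 at 28, Cdh1 at 20.2 and Icam1 at 19.5. In D2 Epcam led at 70.3, followed by Cldn4 at 50.7, Cldn6 at 34.6, Cdh1 at 31.9 and Icam1 at 21.9. Neighbours in these orders differed by less than the larger of their SDs between cells. Cdh1 made up 43.5% of the members' summed level per kilobase in D0, 8.10% in D1 and 14% in D2, and Epcam 6.15%, 47.4% and 30.9%. The set was thus led by E-cadherin before release and by Epcam after it. The summed CPM of the 10 genes itself was 752 ± 258 for D0, 567 ± 334 for D1 and 560 ± 587 for D2.

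**Figure D5:**
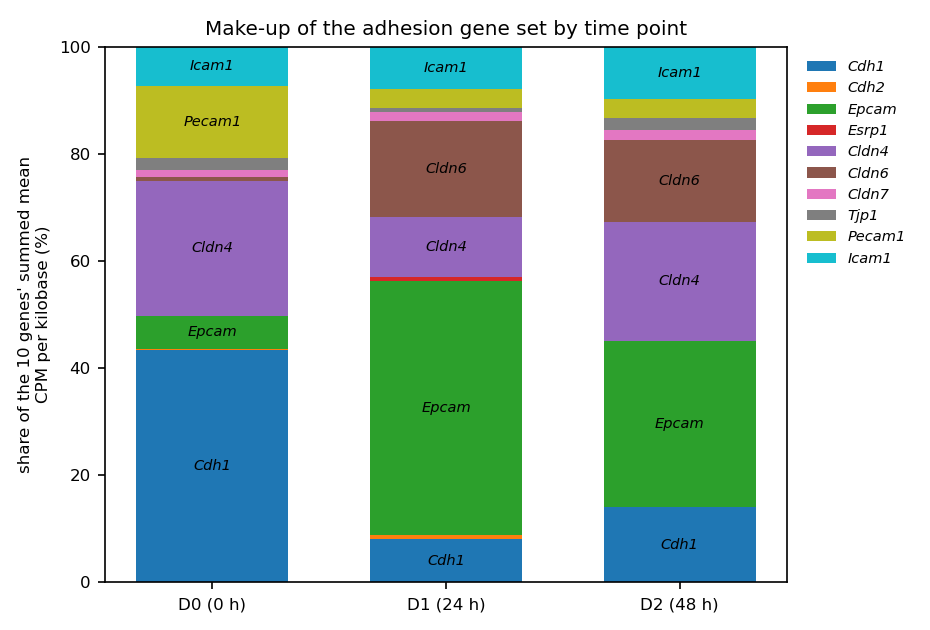
Make-up of the members' summed mean CPM per kilobase in D0, D1 and D2, each bar adding to 100%. The part of Cdh1 goes from 43.5% in D0 to 8.10% in D1 and 14% in D2 and that of Epcam from 6.15% to 47.4% and 30.9%.

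A thinned cell had reads of 4.97 ± 1.28 of the 10 members in D0, 6.10 ± 1.97 in D1 and 3.00 ± 1.66 in D2, and 7 D2 cells had none. The number of members went with the number of genes detected in the cell, at a Spearman rho of 0.37, 0.63 and 0.48 over the 90, 50 and 93 cells. Among the 45 pairs of members, rho over cells lay between -0.15 and 0.26 for D0, between -0.16 and 0.47 for D1 and between -0.15 and 0.28 for D2. The cells of a label share a plate label and differ in depth, so these are descriptions only. The strongest pairs were Epcam with Cldn4 at 0.26 in D0, Cdh1 with Icam1 at 0.47 and Cldn4 with Cldn6 at 0.45 in D1, and Cldn6 with Tjp1 at 0.28 in D2. Cdh1 with Epcam, read together in all but 3 D1 cells at equal depth, was at 0.37 in D1. For Cdh1, the only member read in enough cells of every label, the genes with the most similar pattern were Rfwd3, Tagln2 and Kars, whose lowest rho over the 3 labels was 0.26, 0.22 and 0.22 among 2343 genes.

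Other parts of the junctions were read from lists of genes chosen, like the members, with earlier results of these data known, and the genes named from them are mostly those with the largest ratios. Their counts stand beside those over all tested genes, of which 14.5% were at least 2-fold higher and 23.9% lower in D1 over D0, and 11.2% higher and 28.5% lower in D2 over D0. A gene that passed the filter only through the label where it is high was let in by its own change. In D1 over D0 these were Cdh3, Cgn, Perp, Krt19, Icam2, Esam and Snai3 through D1, and Ablim1, Dsp and Esrp2 through D0. Nothing is therefore read from the counts or medians of the lists. In the adherens junction list, 2 of 12 tested genes were at least 2-fold higher and 4 lower in D1 over D0 (median -0.67), and 1 of 11 higher and 7 lower in D2 over D0 (median -1.14). Ctnna1, the catenin that ties cadherins to actin, had mean levels of 463, 366 and 210 CPM in D0, D1 and D2. Nectin2, an adhesion receptor of the same junction, was at 1.39 in D1 and 1.6 in D2 over D0, although its equal-depth share was 52.7% in D2 against 78.9% in D0, while Nectin3 was at -0.86 and -2.86. The actin binder Ablim1 was at -4.10 and -4.44. Ablim1 was thus on the side of Cdh1 in both, and the mean and the share of Nectin2 parted in D2.

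The tight junction list had 1 of 12 tested genes at least 2-fold higher and 5 lower in D1 over D0 (median -0.66), and 1 of 11 higher and 5 lower in D2 over D0 (median -0.96). Cgn, or cingulin, which binds Tjp1, was at 3.64 in D1 over D0, with mean levels of 2.25, 39.4 and 3.56 CPM in D0, D1 and D2. It was the higher one in D1, and passed the filter only there, with a read in 84% of D1 and 11.1% of D0 cells. F11r, the junctional adhesion molecule JAM-A, was at 0.02 in D1 and 1.95 in D2. The D2 mean came from few cells, the highest at 3263, 2220 and 1852 CPM, and the median was 0.34 CPM against 41.7 in D0. The polarity genes Prkci and Pard6b were at -2.14 and -0.41 in D1 and at -0.96 and -2.93 in D2, and Cldn12 at -1.43 and -4.70.

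Among desmosome and keratin genes, 2 of 7 were at least 2-fold higher and 3 lower in D1 over D0, and 2 of 5 higher and 2 lower in D2 over D0. The 2 higher in D1 were Krt19 at 3.60 and Perp at 3.44, which passed the filter only through D1, where they are high. Those higher in D2 were Krt18 and Pkp2, the latter at 1.84 with a median of 0 CPM in both labels. The desmosomal cadherin Dsg2 went from a mean of 176 CPM in D0 to 9.86 in D1 and 15.2 in D2, and Dsp, the desmoplakin, was at -3.65 and -4.59. The keratin Krt18 was at 1.57 in D2 over D0, but 1 cell carried it: the mean was 43 CPM with that cell and 8.51 without. The D0 mean was also carried by 1 cell, at 13.9 CPM with it and 5.14 without. The desmosomal cadherin Dsg2 thus lay on the same side as E-cadherin, and in D1 Perp and Krt19 lay on the other.

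The protease system around Epcam was read in 4 genes. Spint2, an inhibitor of the membrane protease that cleaves Epcam, was higher, at mean levels of 43.6, 110 and 214 CPM in D0, D1 and D2. The protease itself, St14 or matriptase, was lower at -2.04 and -1.67, and Spint1, a further inhibitor, was at -1.70 and -0.29. Prss8, also of this list, was at 0.38 and -1.20. Epcam and Spint2 were thus on 1 side and St14 and Spint1 on the other, Spint1 within 2-fold in D2. The inhibitors did not share a direction. Counted over the 4, 1 was at least 2-fold higher and 2 lower in D1 and likewise in D2 over D0.

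Of the epithelial regulators, 1 of 7 was at least 2-fold higher and 4 lower in D1 over D0 (median -1.80), and 1 of 6 higher and 5 lower in D2 over D0 (median -1.63). Elf3, an epithelial Ets factor, was at -2.92 and -1.44, and Grhl3, a grainyhead factor, at -2.74 and -1.20. Klf5 was at -0.82 and -2.58, and Rbm47, a splicing regulator, at -1.80 and -3.20. The higher one was Grhl2, a further grainyhead factor, at 1.28 and 1.55, the latter beside an equal-depth share of 11.8% in D2 against 26.7% in D0, and Esrp2, the nearest relative of Esrp1, was at -2.32 and -1.82. In D1 Esrp1 was thus on the side of Grhl2 and not of Esrp2. Of 7 mesenchymal regulators, 2 passed the filter on low values in D1 over D0, with Snai3 at 2.90 and Zeb1 at -0.01, and 1 in D2 over D0, where Zeb1 was at -0.11. Snai3 passed only through D1, where it is high. At equal depth Zeb1 was read in 51.1% of D0, 62% of D1 and 4.30% of D2 cells.

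Mesenchymal products had 3 of 5 genes at least 2-fold higher and 1 lower in D1 over D0, and 1 of 4 in each direction in D2 over D0. Fn1, the fibronectin of the matrix, went from a mean of 794 CPM to 84.7 and 179, in the direction of Cdh1. Its receptor chain Itga5 was at 1.39 and 3.74, the latter with a median of 0 CPM in both labels, and Sparc was at 1.48 and -0.26. Among other immunoglobulin adhesion genes, 2 of 7 were higher and 3 lower in D1 over D0, and 0 of 5 higher and 2 lower in D2 over D0. Jam2, with the highest mean of that list, was at -1.48 and -0.68, Ncam1 at -1.50 and -1.32 and Jam3 at -1.03 and -1.72, whereas Icam2 was at 1.6 in D1 over D0. Esam had no read in D0 and a mean of 6.69 CPM in D1. Icam2 and Esam, the 2 higher ones, passed the filter only through D1, where they are high. Of the integrins, 1 of 6 was higher and 1 lower in D1 over D0, and 0 of 5 higher and 3 lower in D2 over D0. Itgb1, the common beta chain, was at -0.89 and -0.38, Itga3 at 1.88 and 0.53, Itgb5 at -0.02 and -2.15 and Itgav at -1.90 and -3.54.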

How the data were processed

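Per the labels and the methods of the study, the RNA of single sorted cells was sequenced with scNMT-seq and aligned with HISAT2. The submitters' notes name GRCm38, and the annotation and counting tool are not given in the sources used here. The authors deposited read counts for each gene in 288 wells, as whole numbers and without normalization. A processed table is named in the sample descriptions, but these values are raw by their whole numbers and by wells under the limits given next. Cells with over 200000 reads, over 2000 genes and a mitochondrial fraction under 0.15 were kept, 233 in all. Counts were scaled to CPM with the cell's own total. Means weight cells equally, ratios add 1 CPM, and shares carry exact Clopper-Pearson 95% intervals. Thinning drew 200000 reads per cell. A call is a 2-fold ratio. Depth per label stands in the report, and it sets what a share can show.

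The members and lists were chosen with earlier results of these data known. Named genes are the 10 members and, in each list, the 2 with the largest ratio in D1 and in D2 over D0 and the 1 with the highest mean. For likeness to a member, the 3 genes with the highest lowest rho were taken. Krt8, Krt18, Krt19, Perp, Pkp2, Cdh3, Prss8, Grhl2, Esrp2 and single cells were named after their values were seen, as were the 3 promoters printed. Alternatives were other cell filters, summed reads, TMM and median-of-ratios factors, totals without abundant genes, pseudocounts, thinning, medians, parts of the plate, omitted cells, other folds and other detection limits. Lengths and positions came from GENCODE M21, which may not be the annotation of the counts, and promoters from RefSeq. Software was Python 3.11.15, numpy 2.4.6, pandas 2.3.3, scipy 1.17.1, matplotlib 3.10.9, R 4.3.3, edgeR 4.0.16 and DESeq2 1.42.0, the latter pair for scaling factors only. Ratios were tested on simulated data with 4-fold changes and without the genes low in D0. Low members such as Esrp1 and levels held by single cells were not covered by it. The DNA libraries of the study were not used here.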

Additional observations from a re-analysis of the deposited data

How the results depend on the processing

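No paired analysis was possible because the result comes from no test and each label is 1 sample. In D1 over D0 the number of members at least 2-fold higher was 2 with a pseudocount of 10 CPM and 2 with medians over cells, without Cdh2 and Esrp1 in both, and the number lower was 1 with a 4-fold limit. It was 5 higher with reads summed over cells and TMM or median-of-ratios factors, where Cldn7 came in at 1.11 and 1.02. Both the summing and the factors differ there from the main values. The number lower was 4 without the filter on cells, with the stricter filter, with summed reads, with a pseudocount of 0.1 CPM, with a 1.5-fold limit and in plate columns 1 to 6. The number lower with medians was as before, but with Cldn4 in place of Tjp1. In D2 over D0 it was 1 higher with medians, 5 lower with medians (Cdh1, Cldn4, Tjp1, Pecam1, Icam1) and 0 lower with the 4-fold limit. In D2 over D1 it was 2 higher without the filter on cells and 2 with over 300000 reads and over 3000 genes, 3 with a 1.5-fold limit, and 0 with summed reads (also with TMM or median-of-ratios factors), medians or the 4-fold limit. Leaving out 1 cell at a time gave 0 to 2. The number lower was 0 with a pseudocount of 10 CPM, without Cdh2 and Esrp1, and 7 with medians (these 5, Epcam and Cldn6). Tjp1 in D2 over D1 changed sign, to -3.31 with medians, -0.16 in plate columns 7 to 12 and -0.39 without 1 cell. The cause of these changes was not tested. Epcam stayed past 2-fold in D1 and D2 over D0 (2.72 to 5.28 and 2.01 to 3.61), as did Cdh1 (-2.62 to -1.94 and -5.71 to -1.19), while Cldn6 kept 2.66 to 5.83 in D1 and reached 0 in D2. Against summed reads alone, TMM factors shifted all genes alike, by 0.21, 0.28 and 0.07 in the 3 comparisons before 1 CPM was added. Median-of-ratios factors did so by 0.10, 0.23 and 0.12. Of 480 log2 ratios under alternatives, 345 moved beyond counting error and 33 took the other sign, the 3 of Tjp1 among them. Of 90 shares of cells, 21 moved beyond counting error. With exon length in place of the longest transcript, Icam1 and Epcam changed order in D0 and Cdh2 and Tjp1 in D1. With no replicate cultures, depth limits what a single cell's missing read can show.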

Other observations

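A single D2 cell, in row E and column 11, had the highest Cldn4 level of its label, with high levels of some other epithelial genes and few or no reads of others. It had 1037159 reads and 3988 genes. Cldn4 stood at 1973 CPM against a mean of 71.6 in the other D2 cells, and Cdh1 at 1429 was the second highest of the label. The keratins Krt8 and Krt18, partners in the filaments of simple epithelia, stood at 5564 and 3216 CPM against 12.3 and 8.51 in the other cells, and F11r at 2220 against 206. The keratin Krt7, at 901.5 CPM, made up its whole sum over the trophectoderm list. Among the other members, Epcam was at 1.93 CPM, Pecam1 and Icam1 were each at 3.86, and Cldn6, Cldn7, Tjp1, Esrp1 and Cdh2 had no read. The cell was chosen after its values were seen.

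A D1 cell, in row E and column 4, also had Cldn4 beside keratins, but with other members than the D2 cell. It had the second highest Cldn4 and Cldn6 levels of D1, at 346 and 331 CPM, with Epcam at 239.7 CPM and Tjp1 at 19.3, and the highest Krt8 and Krt18, at 813 and 585 against 4.44 and 12.7 in the other cells. The D1 cell with the highest Cldn4, at 846 CPM in row B and column 7, differed from it, with 350065 reads, 2172 genes and no Krt8 or Krt18 read. The D2 cell with the highest Tjp1, at 2432 CPM, also had no read of either keratin.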
